A study of Mus musculus with 3 samples.

Results

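The 6 miRNAs described here are cut from hairpins that lie inside the Hox gene clusters. They are mmu-miR-10a-5p, mmu-miR-10a-3p, mmu-miR-10b-5p, mmu-miR-10b-3p, mmu-miR-196a-5p and mmu-miR-196b-5p (written here without mmu, for mouse), taken by name from the 1138 mature miRNAs listed for each library. All 6 were listed and had reads in each of the 3 libraries. Small RNAs were sequenced from tibialis anterior (TA) muscle, in the front of the lower leg, of C57BL/6 wild type mice that the labels give as 10-week animals and the study's methods as males. The groups were muscle at day 0, and muscle at day 1 and at day 3 after an injection of cardiotoxin, a snake venom toxin that destroys myofibers and starts their regeneration. Whether the day 0 muscles received saline is not given in the sources used here. For each day, 4 samples were pooled into 1 library, so no day has replicates and the spread between mice is unknown. A test on the reads compares 2 libraries and not 2 conditions.

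Hox genes encode transcription factors that set position along the body axis, and their miRNAs sit between or inside them and act on Hox mRNAs among other targets. miR-10 miRNAs are known in endothelial cells, where they take part in vessel growth. miR-196 miRNAs are known for cleaving Hoxb8 mRNA in the embryo. An miRNA finds its targets mainly by its seed, bases 2 to 8 from its 5′ end, so miRNAs with the same seed share most predicted targets. A hairpin can give an miRNA from each arm, named 5p and 3p after the end of the hairpin, and usually 1 arm is kept.

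The sequences are printed because they show which of the miRNAs can share targets and how little separates the members of a pair. They are the RefSeq mature sequences on GRCm38.p6, the build the reads were aligned to, written 5′ to 3′ with the seed in capitals.
mmu-miR-10a-5p: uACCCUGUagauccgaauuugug
mmu-miR-10b-5p: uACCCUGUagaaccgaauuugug
mmu-miR-196a-5p: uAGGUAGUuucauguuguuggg
mmu-miR-196b-5p: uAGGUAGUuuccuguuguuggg
mmu-miR-10a-3p: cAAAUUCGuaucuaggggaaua
mmu-miR-10b-3p: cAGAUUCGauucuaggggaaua
The 5p miRNAs of the miR-10 pair have the same seed and 22 of 23 bases in common, and they differ by U12A (miR-10a-5p base, position from the 5′ end, miR-10b-5p base). The miR-196 pair has the same seed and 21 of 22 bases in common, and differs by A12C. The 3p miRNAs of the miR-10 pair differ by A3G, U9A and A10U, and the first of these lies in the seed, so their seeds are not the same. Among the 953 listed miRNAs with a RefSeq mature sequence, the seed of the miR-10 5p miRNAs and that of the miR-196 5p miRNAs were each found in 2 miRNAs, the pair itself. The miR-196 seed also occurs 1 base further in from the 5′ end in 8 miRNAs, 7 with a let-7 name and miR-98-5p. It occurs 1 base nearer that end in miR-3962. How reads that matched both members of a pair were counted is not given in the sources used here.

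The hairpins of miR-10a and miR-10b show where both arms come from, with the mature miRNAs in capitals.
Mir10a, chr11:96317165-96317274, plus strand: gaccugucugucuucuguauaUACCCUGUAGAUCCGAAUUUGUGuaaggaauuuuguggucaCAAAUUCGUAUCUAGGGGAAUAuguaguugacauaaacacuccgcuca
Mir10b, chr2:74726070-74726137, plus strand: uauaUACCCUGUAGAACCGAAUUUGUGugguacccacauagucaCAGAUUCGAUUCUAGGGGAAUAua
In the GENCODE M21 annotation of GRCm38, Mir10a lies 992 bp before Hoxb4 and 11043 bp after Hoxb5, outside any annotated transcript of another gene. Mir10b lies in an intron of Hoxd4 and of a longer Hoxd3 transcript on the same strand. miR-196a-5p is cut from 2 hairpins with an identical 5p sequence, so its reads cannot be divided between them. These are Mir196a-1 (chr11:96265164-96265265, plus strand), 6191 bp before Hoxb9 and 51899 bp from Mir10a in the same cluster, and Mir196a-2 (chr15:102973350-102973434, plus strand), between Hoxc10 and Hoxc9 in an intron of a noncoding Hoxc5 transcript on the same strand. Mir196b (chr6:52230081-52230165, minus strand) lies 1031 bp from Hoxa10 and overlaps noncoding transcripts of Hoxa9, in an exon of some and in an intron of others.

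The libraries held 6421056 to 9795076 miRNA reads. Levels are counts per 1000000 reads of the library (CPM), a share that moves when other miRNAs move. The miRNAs are 22 or 23 bases long, so their CPM were compared without a length correction. Of 8 myofiber miRNAs, used to check the tissue, 8 had at least 3 reads at day 0, 7 at day 1 and 8 at day 3. They summed to 27.5% of the reads at day 0, 9.21% at day 1 and 27.8% at day 3. At day 3 miR-206-3p, an miRNA of regenerating myofibers, held 18.0% of the reads, and the other 7 summed to 26.3% at day 0, 8.73% at day 1 and 9.79% at day 3. Intervals are 95% intervals (Wilson for levels and shares, Wald for fold changes). They cover counting error only, as do detection limits, and leave out the spread between mice. Both take each read as a separate molecule. Where PCR gave several reads from the same molecule, the intervals are too narrow even for counting error.

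The 4 main (5p) miRNAs were abundant in uninjured muscle and moved apart after injury. In CPM, miR-10a-5p was higher at day 1 and back near its day 0 level at day 3, and miR-10b-5p followed the same course with a smaller change. miR-196a-5p was lower on both days, and miR-196b-5p stayed near its starting level in CPM. Some of the other scalings, given below, turned the direction of miR-10b-5p and miR-196b-5p at day 1 and of miR-10a-5p at day 3. Together the 6 miRNAs held 1.21% of the reads at day 0, 1.74% at day 1 and 0.906% at day 3.

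mmu-miR-10a-5p, the main product of the Hoxb4 hairpin, had 24851 reads at day 0, 53572 at day 1 and 31282 at day 3. Its level was 2921 CPM at day 0 (2885 to 2958), 8343 CPM at day 1 (8273 to 8414) and 3194 CPM at day 3 (3159 to 3229). The day 1 library stood far above the others, which were close to each other. By abundance miR-10a-5p ranked 34 at day 0, 24 at day 1 and 34 at day 3.

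mmu-miR-10b-5p, from the Hoxd4 intron, had 22599 reads at day 0, 32195 at day 1 and 25684 at day 3. This gave 2656 CPM at day 0 (2622 to 2691), 5014 CPM at day 1 (4960 to 5069) and 2622 CPM at day 3 (2590 to 2654). The intervals of day 0 and day 3 overlapped, and day 1 was above both.

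mmu-miR-196a-5p, from the Hoxb and Hoxc hairpins, had 47361 reads at day 0, 18765 at day 1 and 22530 at day 3. Its level was 5567 CPM at day 0 (5517 to 5617), 2922 CPM at day 1 (2881 to 2964) and 2300 CPM at day 3 (2270 to 2330). It was the most abundant of the 6 miRNAs in uninjured muscle, where it ranked 22 among all miRNAs, and it ranked 44 at day 1 and 45 at day 3.

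mmu-miR-196b-5p, from the Hoxa hairpin, had 8492 reads at day 0, 7230 at day 1 and 9245 at day 3. Its level was 998.2 CPM at day 0 (977.2 to 1020), 1126 CPM at day 1 (1100 to 1152) and 943.8 CPM at day 3 (924.8 to 963.3). Its 3 levels lay within a narrow range beside those of the other 5p miRNAs. The order of the 5p levels was miR-196a-5p, miR-10a-5p, miR-10b-5p and miR-196b-5p at day 0. At days 1 and 3 it was miR-10a-5p, miR-10b-5p, miR-196a-5p and miR-196b-5p. No neighbours in these orders had overlapping intervals, but the spread between mice is unknown.

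The opposite (3p) arms of miR-10 had few reads, at most 36 in a library. miR-10a-3p had 9 reads at day 0, 36 at day 1 and 22 at day 3, or 1.06, 5.61 and 2.25 CPM. miR-10b-3p had 9, 24 and 9 reads, or 1.06, 3.74 and 0.919 CPM. Both were highest at day 1, when their intervals, 4.05 to 7.76 CPM and 2.51 to 5.56 CPM, did not overlap those of day 0 (0.557 to 2.01 CPM for each). The smallest level taken as detectable, 3 reads, was 0.353 CPM at day 0, 0.467 CPM at day 1 and 0.306 CPM at day 3.

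**Figure D1:**
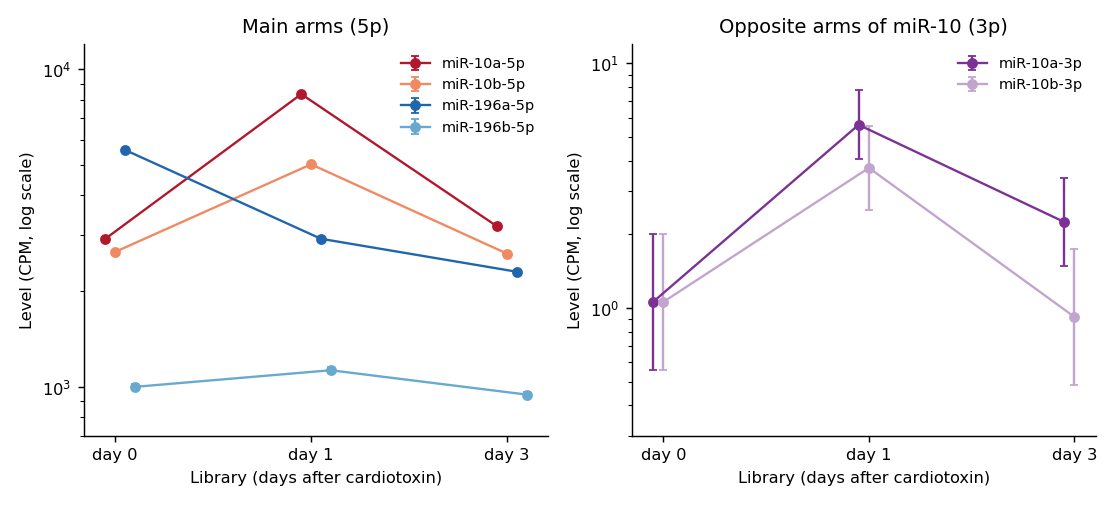
Level of each miRNA in CPM on a log axis (vertical) in the day 0, day 1 and day 3 libraries (horizontal), with the 5p miRNAs on the left and the 3p miRNAs of miR-10 on the right. Points are 1 library each and bars are 95% Wilson intervals, which are smaller than the points for the 5p miRNAs. miR-10a-5p peaks at 8343 CPM at day 1, whereas miR-196a-5p is highest at day 0 at 5567 CPM.

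The comparison of day 1 with day 0 asks which miRNAs changed in the early inflammatory stage. The study's thresholds were used, a fold change of at least 2 and an adjusted p of at most 0.001, here with p from Fisher's exact test (two-sided) and Benjamini-Hochberg adjustment over all miRNAs with a read. Upregulation was called for 2 of the 6 miRNAs, miR-10a-5p and miR-10a-3p, and downregulation for 0. Over all 998 miRNAs tested, 25.1% were called higher and 4.31% lower. Among the 147 miRNAs with at least 1000 reads in 1 of the 2 libraries, a range that holds the 5p miRNAs, 46.9% were called higher and 10.9% lower, so a rise such as that of miR-10a-5p was common. The adjusted p of miR-10a-5p and of miR-10b-5p and miR-196a-5p in this comparison was too small for the software to store, as was that of miR-196a-5p between day 3 and day 0 and of the miR-10 5p miRNAs between day 3 and day 1.

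miR-10a-5p rose by 1.51 on the log2 scale of CPM (interval 1.49 to 1.54), which is 2.86-fold. miR-10a-3p rose by 2.41 (1.35 to 3.46; adjusted p = 1.6e-06 by Fisher's exact test), on 9 and 36 reads. miR-10b-5p had a log2 fold change of 0.92 (0.89 to 0.94), 1.89-fold, and so was below the fold threshold. miR-10b-3p had 1.82 (0.72 to 2.93) and missed the p threshold (adjusted p = 0.0018 by Fisher's exact test).

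miR-196a-5p had a log2 fold change of -0.93 (-0.95 to -0.91) at day 1, a level 1.90 times lower than at day 0, and was just short of the threshold. miR-196b-5p had 0.17 (0.13 to 0.22; adjusted p = 2.3e-13 by Fisher's exact test). These values have to be read against the other miRNAs, since most shares moved up. The median log2 fold change was 0.90 over the 393 miRNAs that had 10 reads or more at both times. Relative to that median, miR-10a-5p was at 0.61, miR-10b-5p at 0.01, miR-196b-5p at -0.73 and miR-196a-5p at -1.83. The change of miR-196a-5p was above that of 11.5% of these 393 miRNAs, that of miR-196b-5p above 32.1%, that of miR-10b-5p above 50.4% and that of miR-10a-5p above 65.1%.

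Other scalings move all miRNAs of a comparison by the same amount, and for day 1 this removed the calls of both miR-10a miRNAs and added that of miR-196a-5p. The shift was -0.94 with edgeR's TMM factors, -1.04 when DESeq2's median-of-ratios factors were used and -0.62 when the 10 most abundant miRNAs were taken out of the totals. miR-10a-5p was then at 0.57, 0.47 and 0.90, higher but not called, and miR-196a-5p was called lower at -1.87, -1.97 and -1.55. miR-10a-3p stayed above 2-fold, at 1.46, 1.36 and 1.79, and missed the p threshold (adjusted p = 0.010, 0.022 and 0.0012 by the exact binomial test). The direction of miR-10b-5p turned with TMM (-0.03) and median-of-ratios factors (-0.13), and that of miR-196b-5p with all 3 scalings (-0.77, -0.87 and -0.44).

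The comparison of day 3 with day 0 covers the stage when new myofibers begin to form. Downregulation was called for 1 of the 6 miRNAs, miR-196a-5p, and upregulation for 0. Over all 1056 miRNAs tested, 4.36% were called lower and 26.1% higher. Among the 170 with at least 1000 reads in 1 of the 2 libraries, 12.9% were called lower and 51.8% higher. miR-196a-5p fell by 1.28 on the log2 scale (interval -1.30 to -1.25), to a level 2.42 times lower than at day 0. It was called lower under each of the other scalings as well, at -1.78 without the 10 most abundant miRNAs in the totals, -2.20 with TMM and -2.40 with median-of-ratios factors. It was not called at a fold change of 4, or when a coefficient of variation of 0.4 was assumed.

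The miR-10 5p miRNAs were near their day 0 share at day 3. miR-10a-5p had a log2 fold change of 0.13 (0.10 to 0.15; adjusted p = 3.0e-25) and miR-10b-5p of -0.02 (-0.04 to 0.01; adjusted p = 0.28 by Fisher's exact test). miR-196b-5p was at -0.08 (-0.12 to -0.04; adjusted p = 5.3e-04), far below the fold threshold. The 3p miRNAs were not called, miR-10a-3p at 1.09 (-0.03 to 2.20; adjusted p = 0.14 by Fisher's exact test) and miR-10b-3p at -0.20 (-1.54 to 1.13; adjusted p = 0.998).

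A share that moved little was a low value beside the other miRNAs, which had a median log2 fold change of 0.93 at day 3 (407 miRNAs with 10 reads or more at both times). Relative to it, miR-10a-5p was at -0.80, miR-10b-5p at -0.95, miR-196b-5p at -1.01 and miR-196a-5p at -2.21. With TMM factors miR-196b-5p was called lower (-1.01), and with median-of-ratios factors miR-10b-5p (-1.14) and miR-196b-5p (-1.20) were.

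**Figure D2:**
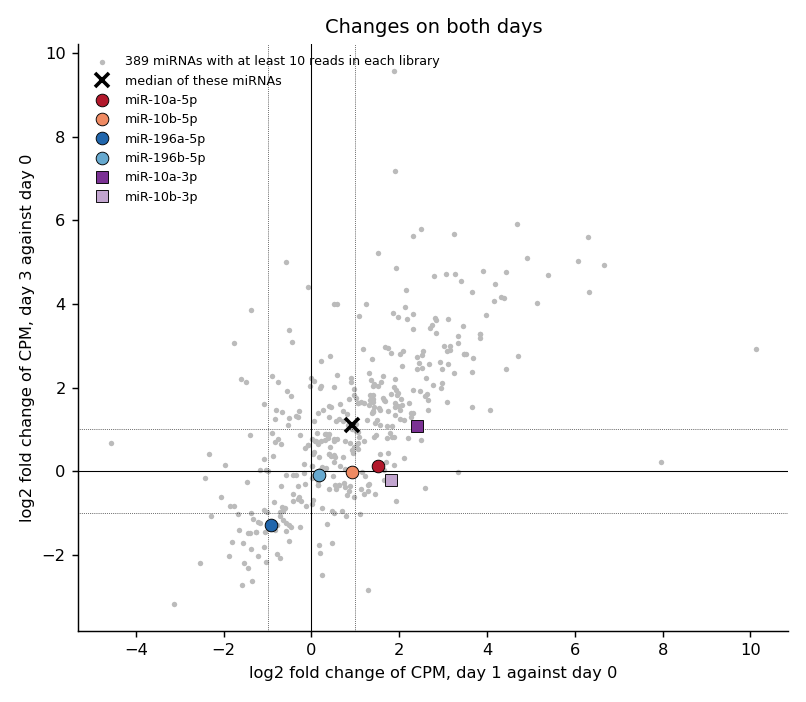
Log2 fold change of CPM at day 1 (horizontal) and at day 3 (vertical), both against day 0, for the 389 miRNAs with at least 10 reads in each library (grey) and for the 6 miRNAs (circles 5p, squares 3p). The cross marks the median of the grey points at 0.91 and 1.09, and dotted lines mark a 2-fold change. The 4 5p miRNAs lie below the median along the day 3 axis, miR-196a-5p farthest.

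In CPM, the comparison of day 3 with day 1 used no day 0 reads. It depended less on scaling, with shifts of 0.02 for TMM, -0.08 for median-of-ratios factors and 0.11 without the 10 most abundant miRNAs. The factors and the 10 most abundant miRNAs were set over all libraries, day 0 included. Downregulation was called for 2 of the 6 miRNAs, miR-10a-5p and miR-10b-3p, and upregulation for 0. Over all 1104 miRNAs tested, 7.16% were called lower and 9.60% higher, and among the 176 with at least 1000 reads in 1 of the 2 libraries, 19.3% were called lower and 22.7% higher. miR-10a-5p fell by 1.39 (-1.41 to -1.37), 2.61-fold, and this call was kept with each scaling of the reads. miR-10a-5p was not called at a fold change of 4, or when a coefficient of variation of 0.4 was assumed. In the deposited expression, a second column whose values are, in the median, a smaller part of the reads in abundant miRNAs, its log2 fold change was -0.93 and it was not called.

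miR-10b-3p fell by 2.02 (-3.13 to -0.92; adjusted p = 4.9e-04 by Fisher's exact test), from 24 to 9 reads. Without the 10 most abundant miRNAs in the totals its log2 fold change was -1.92 and its adjusted p 0.0011 (exact binomial test), just past the threshold. With the reads subsampled to the same total it was -1.78, on 24 and 7 reads, and was not called (adjusted p = 0.011 by Fisher's exact test). miR-10b-5p had -0.94 (-0.96 to -0.91), just short of the fold threshold, and was called lower with median-of-ratios factors (-1.01). miR-10a-3p had -1.32 (-2.08 to -0.55) and an adjusted p of 0.0023 by Fisher's exact test. miR-196a-5p and miR-196b-5p differed little between the injured libraries, with -0.35 (-0.37 to -0.32; adjusted p = 1.1e-127 by Fisher's exact test) and -0.25 (-0.30 to -0.21; adjusted p = 2.7e-28). The median was -0.05 over the 476 miRNAs that had 10 reads or more at both times.

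**Figure D3:**
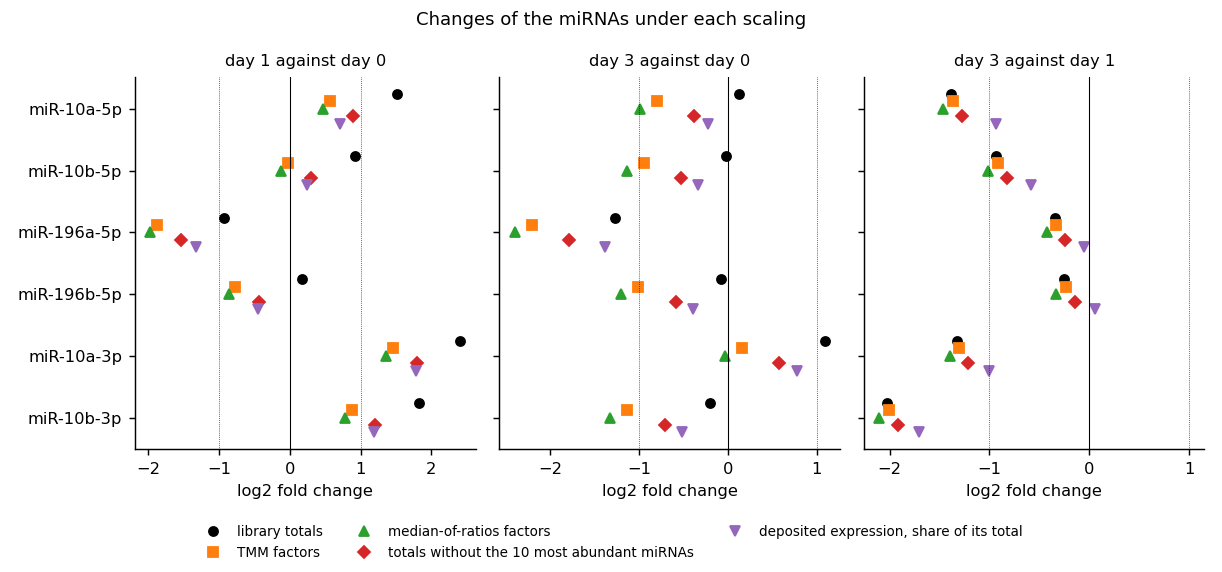
Log2 fold change (horizontal) of each of the 6 miRNAs (rows) in the 3 comparisons (panels), with a marker for each scaling of the reads and for the deposited expression as a share of its total. Dotted lines mark a 2-fold change. Markers of a row spread by about 1 unit in the comparisons with day 0 and lie close together between day 3 and day 1, apart from the deposited expression.

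Ratios of reads within a library do not depend on how libraries are scaled, and they showed how far the miRNAs moved apart. For each read of miR-196a-5p there were 0.525 reads of miR-10a-5p at day 0, 2.86 at day 1 and 1.39 at day 3. This ratio was 5.44 times higher at day 1 than at day 0 (5.32 to 5.56), and 2.65 times higher at day 3 (2.59 to 2.71). The miR-10 5p reads made up 45.9% of the reads of all 4 5p miRNAs at day 0 (45.6 to 46.2), 76.7% at day 1 (76.5 to 77.0) and 64.2% at day 3 (63.9 to 64.5).

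Within the miR-10 pair, whose members share a seed, the balance moved toward miR-10a-5p at day 1. miR-10a-5p held 52.4% of the pair's reads at day 0 (51.9 to 52.8), 62.5% at day 1 (62.1 to 62.8) and 54.9% at day 3 (54.5 to 55.3). The pair together was at 5577 CPM at day 0, 13357 at day 1 and 5816 at day 3.

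Within the miR-196 pair, the balance moved toward miR-196b-5p and had not returned by day 3. miR-196b-5p held 15.2% of the reads of the pair at day 0 (14.9 to 15.5), 27.8% at day 1 (27.3 to 28.4) and 29.1% at day 3 (28.6 to 29.6). The pair together was at 6565 CPM at day 0, 4048 at day 1 and 3244 at day 3. The ratio of miR-196a-5p to miR-196b-5p, whose sequences differ by A12C alone, was 5.58 at day 0, 2.15 times lower at day 1 and 2.29 times lower at day 3.

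**Figure D4:**
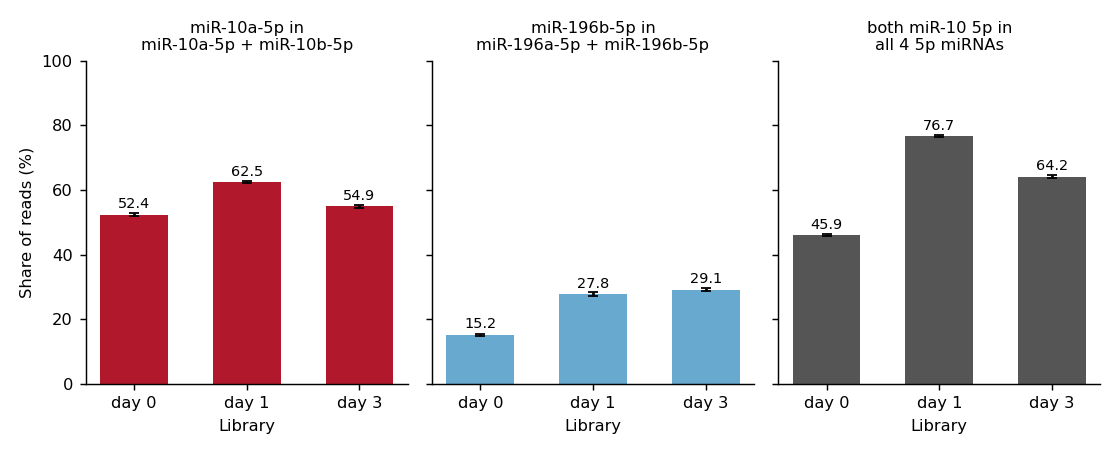
Share of reads in percent (vertical, from 0 to 100) in each library (horizontal), for miR-10a-5p within the miR-10 5p pair, miR-196b-5p within the miR-196 pair, and the miR-10 5p pair among all 4 5p miRNAs. Bars are 1 library each with 95% Wilson intervals. The miR-10a-5p share is highest at day 1 at 62.5%, while the miR-196b-5p share stays near its day 1 value at day 3.

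The 5p arm made up nearly all reads of each hairpin. The 3p share was 0.0362% for miR-10a at day 0 (0.0191 to 0.0688), 0.0672% at day 1 (0.0485 to 0.0930) and 0.0703% at day 3 (0.0464 to 0.106). For miR-10b it was 0.0398% (0.0209 to 0.0757), 0.0745% (0.0501 to 0.111) and 0.0350% (0.0184 to 0.0666). These shares were low beside those of other hairpins, for which the median was 18.7% at day 0 over the 151 hairpins with at least 100 reads. Only 14 of these 151 had a lower 3p share than miR-10a, and 17 a lower share than miR-10b.

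A change in the 3p share was called when the odds changed at least 2-fold with an adjusted p of at most 0.001, over all hairpins with at least 100 reads in both libraries. This was the case for 18.2% of 143 hairpins at day 1 and 28.9% of 149 at day 3 against day 0, and for 21.7% of 175 between day 3 and day 1. Neither miR-10 hairpin was called in any of these comparisons, nor was the miR-196b hairpin. The odds ratio at day 1 was 1.86 for miR-10a (adjusted p = 0.20 by Fisher's exact test) and 1.87 for miR-10b (adjusted p = 0.21). The 3p reads behind these ratios were 9 at day 0 for each miRNA, and 36 and 24 at day 1. For miR-196b the 3p share was 0.129% at day 0, 0.138% at day 1 and 0.0216% at day 3, on 11, 10 and 2 reads of the 3p arm. Its log2 odds ratio was -2.58 at day 3 against day 0 (adjusted p = 0.020 by Fisher's exact test) and -2.68 against day 1 (adjusted p = 0.018).

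Other miRNAs of Hox-cluster hairpins were taken from a list of 5, of which 4 were listed in the files. miR-615-3p, from an intron of Hoxc5, had 153.3 CPM at day 0, 38.9 at day 1 and 171.2 at day 3. It was called lower at day 1 (log2 fold change -1.98, adjusted p = 2.3e-113 by Fisher's exact test) and higher at day 3 than at day 1 (2.14, adjusted p = 8.7e-146). It was thus low on the day when the miR-10 5p miRNAs were high. miR-615-5p had 18, 6 and 37 reads at days 0, 1 and 3, and was not called in any comparison. miR-196a-2-3p had 8, 4 and 0 reads and miR-196b-3p had 11, 10 and 2, and neither was called.

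The miRNAs with the most similar courses were found by the distance between the pairs of log2 fold changes at day 1 and day 3, over 3 libraries and 216 miRNAs with at least 100 reads in each. The nearest to miR-10a-5p were miR-152-3p, miR-338-5p, miR-27a-3p, miR-126a-5p and miR-192-5p, at distances of 0.18 to 0.37. The nearest to miR-10b-5p were miR-361-5p, miR-126a-3p, miR-199b-5p, miR-181c-5p and miR-139-3p, at 0.16 to 0.33. Each list thus held 1 arm of miR-126a, an miRNA of endothelial cells, miR-126a-5p in the first and miR-126a-3p in the second. miR-126a-5p was at 1591 CPM at day 0, 5011 at day 1 and 1383 at day 3, and miR-126a-3p at 57836, 127912 and 57349 CPM. The course was not particular to endothelial miRNAs. With a minimum of 1000 reads in each library, the 5 nearest to miR-10a-5p also held miR-145a-5p, a smooth muscle and stromal miRNA. It was at 630.3, 1571 and 513.5 CPM. Others of that kind, miR-199a-3p, miR-199a-5p and miR-214-3p, were called higher at day 3 than at day 0.

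The courses nearest to that of miR-196a-5p were those of miR-378c, miR-136-5p, miR-434-3p, miR-328-3p and miR-30c-2-3p, at distances of 0.14 to 0.30. For miR-196b-5p they were miR-1839-5p, miR-185-5p, miR-154-5p, miR-574-3p and miR-322-5p, at 0.12 to 0.23. With 3 libraries each course has only 2 values, so many miRNAs are close to any of them.

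Markers of cell types moved between the same libraries. The counts of markers called stand beside 25.1% called higher at day 1 and 26.1% at day 3 over all miRNAs, and beside 4.31% and 4.36% called lower. The 2 endothelial miRNAs, the arms of miR-126a, summed to 5.94% of the reads at day 0, 13.3% at day 1 and 5.87% at day 3, and both were called higher at day 1 and neither at day 3. The 5 smooth muscle and stromal miRNAs summed to 3.69%, 6.75% and 3.16%, with 3 called higher on each day. The 6 leukocyte miRNAs summed to 0.535%, 2.09% and 0.920%, with 4 called higher on each day. The 3 erythroid miRNAs summed to 0.715%, 2.53% and 1.26%, with 3 called higher at day 1 and 0 at day 3. Of the 8 myofiber miRNAs, 2 of which (miR-486a-5p and miR-486b-5p) had identical counts, 6 were called lower at day 1 and 5 at day 3, and 1 was called higher at day 3. With TMM factors, where 12.9% of all miRNAs were called higher and 10.7% lower at day 1, none of the 2 endothelial and 3 erythroid miRNAs, 1 of the 5 smooth muscle and stromal miRNAs and 4 of the 6 leukocyte miRNAs were called higher on that day, and 7 of the 8 myofiber miRNAs were called lower. At day 3 with TMM factors, 15.6% of all miRNAs were called higher and 10.3% lower. Then 1 of the 2 endothelial, 2 of the 5 smooth muscle and stromal and 1 of the 6 leukocyte miRNAs were called lower, and 1 of the 5 and 4 of the 6 in the latter lists were called higher. No marker was at 0 in any library. The part of these cell types in the levels of the miR-10 and miR-196 miRNAs was not tested, and in whole muscle fewer cells of a type and less RNA per cell cannot be told apart.

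The deposited expression values, whole numbers that never exceed the read count, were, in the median, a smaller part of the reads in abundant miRNAs. The median over miRNAs with 10 to 999 reads was 100.0% of the reads at day 0, and over the 11 miRNAs with at least 100000 reads it was 36.1%. A fold change from this column is therefore not on the same scale as one from reads. They were 84.9% of the reads of miR-10a-5p at day 0, 75.3% at day 1 and 82.6% at day 3. For miR-196a-5p they were 75.9%, 89.3% and 87.5%. For both miRNAs the percentage was lowest in the library with the most reads of that miRNA. As shares of their total, these values gave a log2 fold change at day 1 of 0.71 for miR-10a-5p and -1.33 for miR-196a-5p, the first not called and the second called lower.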

How the data were processed

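Small RNAs of 18 to 30 nucleotides from 3 pooled libraries were sequenced by the authors on the BGISEQ platform and aligned to GRCm38.p6. The submitters' processing notes name HISAT and Bowtie2, with no version. The authors deposited a read count for each of 1138 mature miRNAs, without normalization, and a second column of expression, a score whose making by the authors is not given in the sources used here. Totals were 8507580 (day 0), 6421056 (day 1) and 9795076 reads (day 3). Libraries were assigned to days from their labels, which give 10 mM cardiotoxin and 30 mL where the study's methods give μM and μl.

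Reads were divided by library totals. Two-sided Fisher's exact tests with Benjamini-Hochberg adjustment ran over the miRNAs that had a read in 1 or both libraries (998, 1056 and 1104 in the 3 comparisons), with calls from 2-fold upward at an adjusted p of at most 0.001. The 6 miRNAs and all lists were chosen with earlier results of these data known. The miRNAs named were the 6, the other miRNAs of Hox-cluster hairpins, the miR-99/100 relatives and the 5 miRNAs nearest in course to each 5p miRNA. The let-7 miRNAs, miR-98-5p and miR-3962 (for the seed) and marker miRNAs were named in addition, the markers after their values were seen. An miRNA with 0 reads in 1 library counted as past the fold threshold.

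Alternatives were totals without the 10 most abundant miRNAs, median-of-ratios factors and TMM factors (tested by the exact binomial test given both reads), the expression score as a share of its total for the fold change, a minimum of 10 reads, a pseudocount of 1 CPM, an adjusted p of 0.05, a fold change of 4, the exact test of edgeR when a coefficient of variation of 0.4 is assumed, and reads subsampled to 6421056. The scalings were also applied to the marker miRNAs, which was chosen after seeing the data. On simulated reads with 200 of 1138 miRNAs changed 4-fold, all with at least 100 reads on day 0, 200 were called in the right direction for day 1 against day 0 and 200 for day 3 against day 0. Changes this large on that many reads pass easily, so this says nothing of changes near 2-fold or of miRNAs with few reads. Factors came from edgeR 4.0.16 and DESeq2 1.42.0 in R 4.3.3. Tests ran in scipy 1.17.1, tables in pandas 2.3.3 and numpy 2.4.6, and plots in matplotlib 3.10.9, under Python 3.11.15.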

Additional observations from a re-analysis of the deposited data

Results flagged for a closer look

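The change from day 0 differed between day 1 and day 3 for 2 of the 6 miRNAs, by the test of day 3 against day 1 on the reads, which called 7.16% of all 1104 miRNAs lower and 9.60% higher. miR-10a-5p was 1.39 lower on day 3 on the log2 scale (log2 fold change -1.39), with 8343 CPM on day 1 and 3194 on day 3, and it was not called in the deposited expression (-0.93). miR-10b-3p had a log2 fold change of -2.02, on 24 and 9 reads (adjusted p = 4.9e-04 by Fisher's exact test), and was not called with subsampled reads (-1.78) or without the 10 most abundant miRNAs in the totals (-1.92). Neither miRNA was called when a coefficient of variation of 0.4 was assumed. Each value compares 1 library with 1 library and has no replicate check.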

How the results depend on the processing

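No paired analysis was possible because each day has 1 library. With 1 library a day, no statement here covers the spread between mice, and reads of the 3p miRNAs (at most 36) limit what can be said of them.

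The number of the 6 miRNAs called at day 1 was 2, but 1 under TMM factors, median-of-ratios factors, totals without the 10 most abundant miRNAs or a fold change of 4, and 0 with an assumed coefficient of variation of 0.4. With the scalings that 1 was miR-196a-5p, lower, and with the fold change of 4 it was miR-10a-3p, higher. At day 3 it was 1, with 2 under TMM factors, 3 under median-of-ratios factors, and 0 under a fold change of 4 or the assumed coefficient of variation. Between day 3 and day 1 it was 2, and 1 with totals without the 10 most abundant miRNAs, the deposited expression, a fold change of 4 or subsampled reads, and 0 with the assumed coefficient of variation. The counts under the other settings stayed within 1.5 times these. Calls over all miRNAs moved too: a fold change of 4 left 168 higher and 9 lower of 998 at day 1, 194 and 14 of 1056 at day 3, and 63 and 29 of 1104 between day 3 and day 1. The assumed coefficient of variation left 28 and 1, 54 and 0, and 9 and 3. Between day 3 and day 1, 106 and 79 became 115 and 70 without the 10 most abundant miRNAs, 120 and 55 with the deposited expression and 99 and 73 of 1065 with subsampled reads. Over all miRNAs at day 1, 250 were called higher and 43 lower, which became 129 and 107 (TMM), 118 and 121 (median of ratios), and 173 and 83 (totals without the 10 most abundant miRNAs). At day 3 the lower calls over all 1056 miRNAs rose as well, from 46 to 109 (10.3%) with TMM and 124 (11.7%) with median-of-ratios factors.

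Of 90 log2 fold changes of the 6 miRNAs under other scalings, values or a pseudocount, 61 kept their direction and call, 9 lost the call, 8 gained one and 12 turned direction. At day 1, miR-10b-5p turned to -0.028 with TMM and -0.13 with median-of-ratios factors, and miR-196b-5p to -0.77, -0.87, -0.44 without the 10 most abundant miRNAs and -0.44 with the deposited expression. At day 3, miR-10a-5p turned to -0.80, -0.99, -0.38 and -0.22 under these 4 settings, and miR-10a-3p to -0.033 with median-of-ratios factors. Between day 3 and day 1, miR-196b-5p turned to 0.054 with the deposited expression. The scalings shift all miRNAs of a comparison by 1 amount, which accounts for the turns they gave.

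In the deposited expression, the miR-10a-5p share of its pair was 60.0% at day 1 and 54.0% at day 3, and the miR-196b-5p share was 18.2% at day 0, 29.1% at day 1 and 30.7% at day 3. Of 27 values for the 3p shares, 26 kept their direction and call, but most of these could not turn. A minimum of 20 reads and an odds ratio of 4 leave each log2 odds ratio as it was, and the latter cannot add a call. Only the deposited expression could turn a direction, and with it that of miR-10a between day 3 and day 1 turned to a log2 odds ratio of -0.069. With a minimum of 1000 reads, 3 of the 5 nearest miRNAs remained for miR-10a-5p, 2 for miR-10b-5p, 2 for miR-196a-5p and 4 for miR-196b-5p. TMM factors cannot change these distances, since they add 1 constant to each comparison. Of 60 counts of called markers under the 3 scalings, an alternative chosen after seeing the data, 43 stayed within 1.5 times their value with library totals and 17 did not. Many of the 43 were counts of 0 under both, such as erythroid miRNAs called lower, which were taken as unchanged. The 43 therefore overstate how stable the counts with a call were.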

Other observations

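The miR-99/100 miRNAs are relatives of miR-10 that lie outside the Hox clusters, with the seed ACCCGUA in place of ACCCUGU. miR-10a-5p shares a run of 11 bases, guagauccgaa, with miR-100-5p and 10 of these with miR-99a-5p, and miR-10b-5p shares the run guagaaccga with miR-99b-5p. miR-99a-5p had 22981 CPM on day 0, 20669 on day 1 and 18605 on day 3, and was not called. miR-99b-5p had 3060, 3831 and 5683 CPM and was not called. miR-100-5p had 7716, 4958 and 3437 CPM and was called lower on day 3 (log2 fold change -1.17). None of the 3 was highest on day 1 in CPM, the day on which both miR-10 5p miRNAs were. Whether the courses of the families differ was not tested.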
